A study of Mus musculus with 6 samples.

Results

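The genes described here encode the proteins of the mitochondrial ribosome, together with Rbfa, a factor that helps to build it. They were chosen by name: all entries of the deposited gene table whose symbol begins with Mrpl or Mrps and a number, without pseudogene names, plus Rbfa. That gave 77 of 26982 genes, of which 47 carry an Mrpl name and 29 an Mrps name, and 4 pseudogene names were left out. Mouse 2-cell embryos were sequenced that had grown from zygotes microinjected 18 h after hCG with 0.6 µg/µl of Suv39h1wt mRNA, with the same amount of Suv39h1mut mRNA, or not injected, and all were cultured in KSOM. SUV39H1 is a methyltransferase that places the heterochromatin mark H3K9me3. The labels give neither the mutation nor the strain, nor how many embryos went into a library. Each of the 3 groups had 2 libraries, made by whole-transcriptome amplification of 2 ng of total RNA. Whether the paired libraries of a group stem from different collections of embryos is not stated, so p-values measure the spread between these libraries, which may be technical.

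Mitochondria keep their own ribosome, which translates only the few messages of the mitochondrial genome, all for subunits of the respiratory chain and ATP synthase. Its ribosomal RNAs, mt-Rnr1 of the small subunit and mt-Rnr2 of the large subunit, are transcribed from mitochondrial DNA, whereas every ribosomal protein is encoded in the nucleus, made in the cytosol and imported. Some of the proteins have bacterial counterparts and others exist only in mitochondria. The oocyte supplies the mitochondria of the early embryo, along with a store of maternal transcripts that is cleared around the 2-cell stage as embryonic transcription starts. RBFA is known from bacteria and human cells, where it binds the maturing small subunit.

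Total gene counts per library lay between 33.5 M and 48.6 M, and 18463 to 22349 genes had at least 1 count. Markers of the 2-cell embryo, such as the Zscan4 genes and Zfp352, summed to 654 and 867 CPM in Suv39h1wt libraries, 542 and 457 CPM in Suv39h1mut libraries, and 278 and 323 CPM in non-injected libraries. CPM is the usual unit of counts scaled to library size, here with TMM factors. Oocyte and zygote markers, such as Gdf9 and Zp3, summed to 1423 and 1713 CPM in Suv39h1wt libraries, 1517 and 1751 CPM in Suv39h1mut libraries, and 881 and 1267 CPM in non-injected libraries. As sums, both marker lists were thus higher in all 4 injected libraries. Single markers differed: in DESeq2 Zp3 was lower, with log2 fold changes over non-injected embryos of -0.90 for Suv39h1wt and -1.08 for Suv39h1mut. Of the 8 oocyte and zygote markers, 7 were positive for Suv39h1wt and 5 for Suv39h1mut in edgeR. Summed markers of cumulus cells ran from 3.20 to 13.1, those of sperm from 0 to 2.09 and those of blood from 0.824 to 7.05 CPM. Suv39h1 itself had 2669 and 1262 counts in Suv39h1wt libraries, 1461 and 1964 in Suv39h1mut libraries, and 1618 and 1144 in non-injected libraries, so its level overlapped between the groups.

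Upstream sequence is shown for 3 large-subunit genes. Mrpl51 and Mrpl9 were taken from the genes with a promoter entry and no overlapping gene. They had the highest level per length among those with an upstream ETS motif and NRF1 motif, respectively. Mrpl28 was added by name, and any link between motifs and levels was not tested. Each run is the 250 bases before the annotated start, from RefSeq on GRCm38.p6, and none of these genes overlaps another gene in the deposited coordinates. Mrpl51 lies at chr6:125191950-125192199 on the plus strand, and capitals mark CCGGAAG, a site of the ETS family that includes the NRF2 (GABP) activator of mitochondrial genes. Mrpl9 lies at chr3:94443086-94443335 on the plus strand, and capitals mark the NRF1 motif GCGCNNGCGC. Mrpl28 lies at chr17:26123253-26123502 on the plus strand and holds none of the ETS, NRF1 or YY1 motifs searched.
Mrpl51: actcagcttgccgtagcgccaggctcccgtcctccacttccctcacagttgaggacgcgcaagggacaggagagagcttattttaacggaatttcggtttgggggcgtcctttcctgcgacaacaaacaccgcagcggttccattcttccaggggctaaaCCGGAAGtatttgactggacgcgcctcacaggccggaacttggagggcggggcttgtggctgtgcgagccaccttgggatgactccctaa
Mrpl9: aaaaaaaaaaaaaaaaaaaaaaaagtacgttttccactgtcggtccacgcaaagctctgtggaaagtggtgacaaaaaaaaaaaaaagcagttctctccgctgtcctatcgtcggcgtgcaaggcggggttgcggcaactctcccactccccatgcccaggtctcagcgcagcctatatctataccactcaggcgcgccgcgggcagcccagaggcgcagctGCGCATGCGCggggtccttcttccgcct
Mrpl28: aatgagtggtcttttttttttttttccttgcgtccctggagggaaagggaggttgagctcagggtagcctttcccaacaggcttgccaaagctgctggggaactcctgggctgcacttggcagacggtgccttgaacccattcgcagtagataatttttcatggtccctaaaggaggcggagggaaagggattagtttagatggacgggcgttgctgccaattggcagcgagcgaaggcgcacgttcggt

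Of the 77 genes, 67 had a promoter entry, giving 73 windows of 300 bases (250 before the start and 50 after it). Both strands of each window were searched, and none of the motifs contains another. The ETS motif stood in 24 of the 73 windows (32.9%), against 14.6% of the 14029 windows of genes tested here and 8.86% of all 32851 windows. The NRF1 motif stood in 13 (17.8%), against 11.2% and 6.23%. The YY1 core ATGGCGG stood in 13 (17.8%), against 6.72% and 4.05%. The GC box GGGCGG stood in 38 (52.1%), against 56.8% and 35.7%. NRF1, NRF2 and YY1 are known as activators of nuclear genes for mitochondrial proteins, and a match here describes the letters only.

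Transcripts for nearly the whole particle were present in 2-cell embryos of every group. At least 100 counts were found in every library for 42 of the 77 genes, and 6 genes had 0 counts in at least 1 library. The median level per length was 8.13 CPM per kb for the 77 genes, 9.49 for the 49 large-subunit proteins and 6.66 for the 26 small-subunit proteins, against 3.17 CPM per kb for the 17638 genes tested. Mrps30 and Mrps18a were counted with the large subunit, where their proteins sit. Mrps36 was left out of both subunits, since its protein is not a stable part of the ribosome.

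The large-subunit gene with the highest level per length was Mrpl18, with 62.5 ± 14.2 CPM per kb (SD over 6 libraries), followed by Mrpl51 (46.0 ± 23.5), Mrpl34 (33.1 ± 20.8), Mrpl28 (26.6 ± 20.6) and Mrpl22 (25.8 ± 13.5). Each of these except Mrpl51 is the counterpart of a bacterial protein, and the bacterial counterpart of Mrpl22 lines the exit tunnel of the nascent chain. The leading small-subunit genes were Mrps14 (29.8 ± 10.7 CPM per kb), Mrps7 (26.3 ± 8.02), Mrps6 (24.8 ± 17.6), Mrps24 (24.2 ± 14.4) and Mrps25 (17.0 ± 6.64). Neighbours in either order differed by less than the larger of their SDs. Mrps6 has another gene, Slc5a3, inside its annotated extent, and Mrpl18 overlaps Tcp1 on the other strand, so reads may have been shared there. In all, 30 of the 77 genes overlap another gene in the deposited coordinates, 23 of them one on the other strand, and the sources used here do not say whether counting used strand.

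At the other end, 3 genes failed the low-count filter (a minimum count of 10) and were not tested. Mrpl53 had 8 and 0 counts in Suv39h1wt libraries, 0 and 0 in Suv39h1mut libraries, and 0 and 23 in non-injected libraries. Mrps31 had 83 and 0 counts in Suv39h1wt libraries, 9 and 8 in Suv39h1mut libraries, and 4 and 0 in non-injected libraries. Mrps34 had 0 and 0 counts in Suv39h1wt libraries, 7 and 0 in Suv39h1mut libraries, and 1 and 48 in non-injected libraries. In each of these 1 library held most of the counts. A count of 0 allows up to 3 counts, which is 0.0575 to 0.0919 CPM depending on the library, for counting error only. The plot of all genes by library places them at the foot of each subunit.

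**Figure D1:**
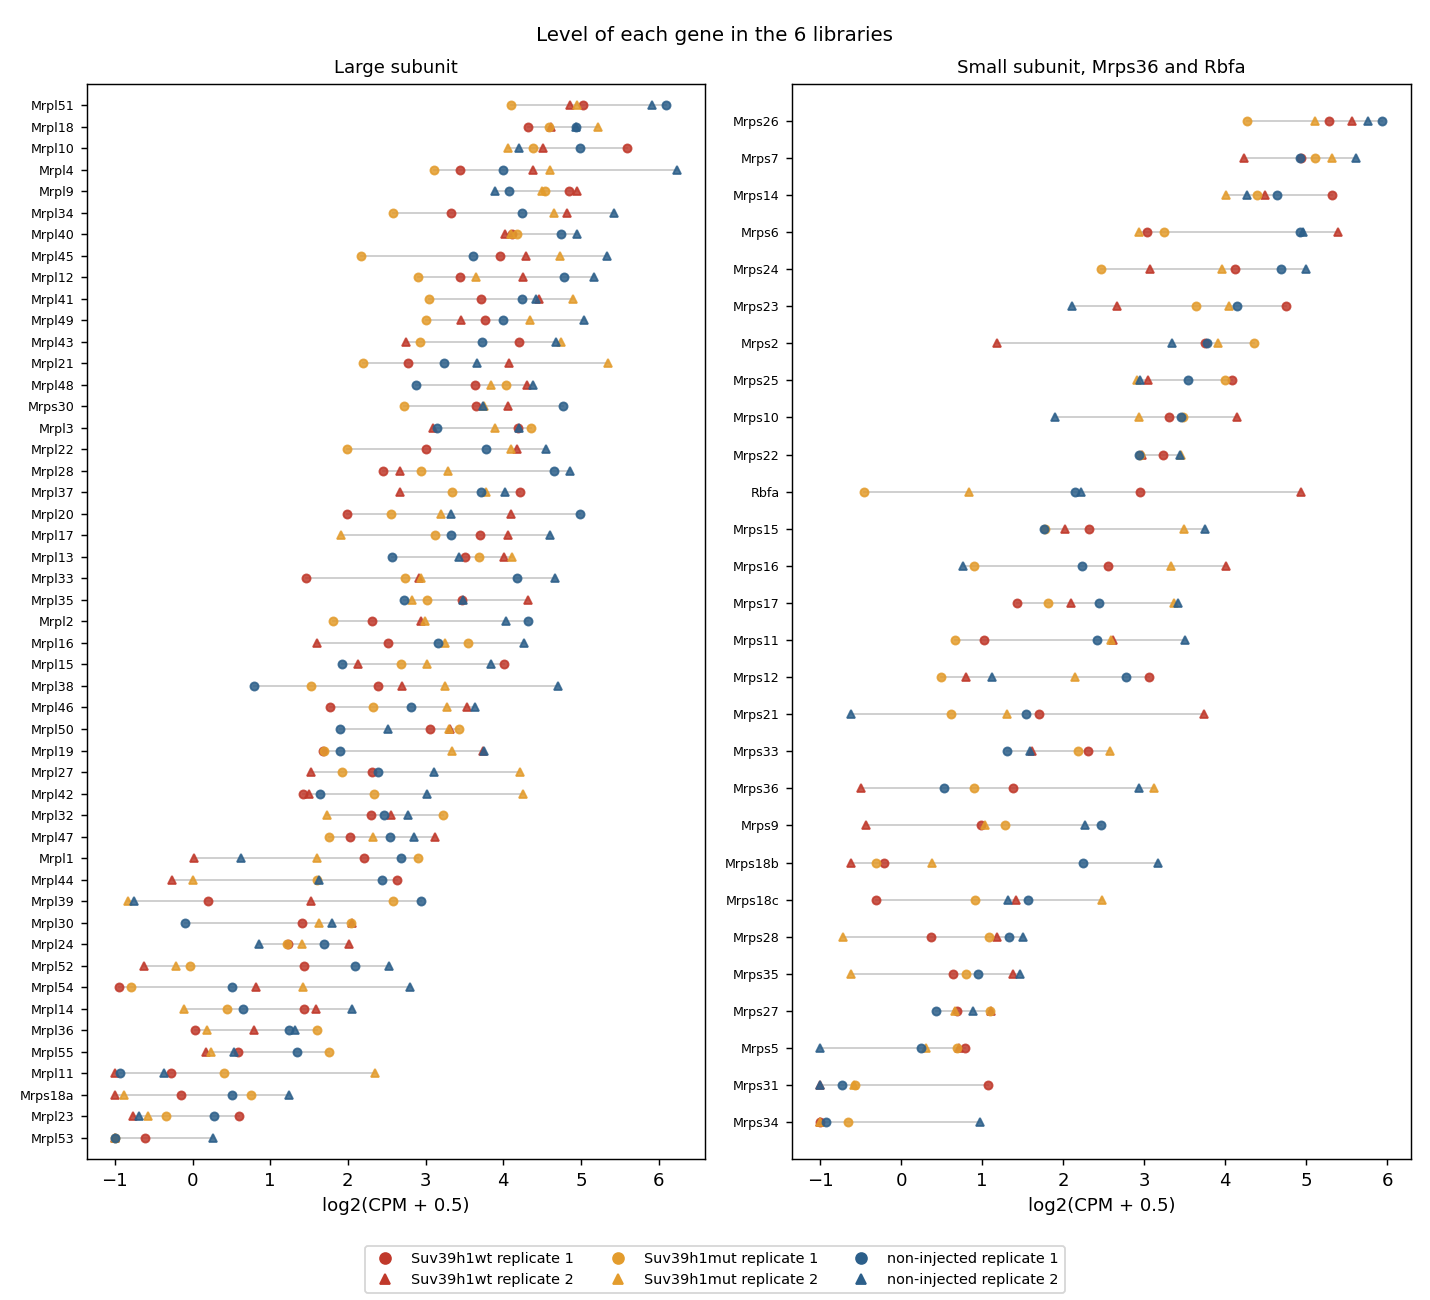
Level of each of the 77 genes in the 6 libraries, on a log2(CPM + 0.5) axis, with large-subunit genes in the left panel and small-subunit genes, Mrps36 and Rbfa in the right panel, ordered by mean level. Each symbol is 1 library and each grey line spans the lowest and highest; Rbfa stands out by a span of 5.39 log2 units.

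By median difference, the mitochondrial ribosome genes varied more between the libraries of a group than all tested genes did. In edgeR the median coefficient of variation went the other way, at 0.682 against 0.793 for all tested genes. The median absolute log2 difference between the 2 libraries of a group was 0.83 for the 74 tested genes in Suv39h1wt embryos, 0.90 in Suv39h1mut embryos and 0.79 in non-injected embryos, against 0.81, 0.72 and 0.73 for all tested genes. The genes with the widest span over the 6 libraries were Rbfa (5.39 log2 units), Mrps21 (4.36), Mrpl38 (3.92) and Mrps18b (3.80). The median span was 2.19 for the 74 genes and 1.96 for all tested genes. Mrpl38, a protein found only in the mitochondrial large subunit, had 4.74 and 5.97 CPM in Suv39h1wt libraries, 2.37 and 8.99 in Suv39h1mut libraries, and 1.22 and 25.6 in non-injected libraries. Its lowest and highest values were thus both in the non-injected group. In pairs of libraries, Spearman's rho over the 74 genes, which differ widely in level, was 0.675 to 0.744 within groups and 0.608 to 0.804 between groups. The corresponding values over all tested genes were 0.837 to 0.873 and 0.824 to 0.916.

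The summed level was lower in the 4 libraries from injected embryos than in either non-injected library. The 77 genes summed to 721 ± 51.5 CPM in Suv39h1wt embryos, 662 ± 199 CPM in Suv39h1mut embryos and 962 ± 176 CPM in non-injected embryos (SD, n = 2 each). By library the sums were 685 and 758 CPM in Suv39h1wt embryos, 521 and 802 in Suv39h1mut embryos, and 837 and 1087 in non-injected embryos. As a share of all gene counts, with no scaling, the genes took 0.0776% and 0.0583% in Suv39h1wt libraries, 0.0560% and 0.0812% in Suv39h1mut libraries, and 0.0980% and 0.0974% in non-injected libraries. In bulk RNA, fewer cells with a transcript and less of it per cell cannot be told apart.

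The subunits showed this to different extents. Large-subunit genes summed to 432 and 496 CPM in Suv39h1wt libraries, 343 and 570 in Suv39h1mut libraries, and 559 and 796 in non-injected libraries, where 1 Suv39h1mut library exceeded 1 non-injected library. Small-subunit genes summed to 237 ± 8.70 CPM in Suv39h1wt embryos, 200 ± 33.1 CPM in Suv39h1mut embryos and 277 ± 3.69 CPM in non-injected embryos (SD, n = 2 each), and no injected library reached a non-injected one. With 2 libraries against 2, an exact permutation test of a sum cannot give a two-sided p under 0.05, and none was made. The ribosomal RNAs of the same particle took 26.7% and 47.3% of gene counts in Suv39h1wt libraries, 28.7% and 37.4% in Suv39h1mut libraries, and 37.0% and 46.8% in non-injected libraries. That share overlapped between the groups and was higher in the second library of each.

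**Figure D2:**
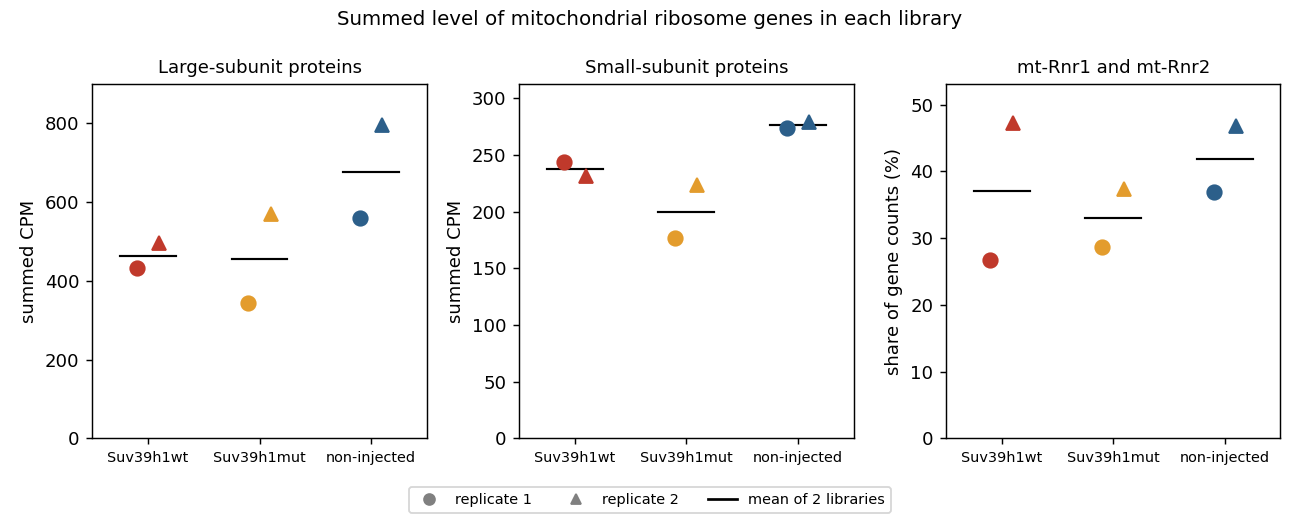
Summed CPM of the large-subunit genes (left) and small-subunit genes (middle), and the share of gene counts taken by mt-Rnr1 and mt-Rnr2 (right), in each library. Circles are replicate 1, triangles replicate 2 and lines the mean of 2 libraries; the non-injected libraries are highest for the small subunit, at 274 and 279 CPM.

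Suv39h1wt embryos were first set against non-injected embryos, which asks what differed after injection of the wild-type message. No mitochondrial ribosome gene passed edgeR's quasi-likelihood test at an adjusted p under 0.05, and neither did any other gene (0% of 17638), while 1086 genes (6.16%) had an unadjusted p under 0.05. Of the 74 tested genes, 23 had a positive and 51 a negative log2 fold change, with a median of -0.45 against 0.02 for all tested genes, of which 50.8% were positive. Both Suv39h1wt libraries lay below both non-injected libraries for 20 of the 74 genes, against 17.5% of all tested genes, and above them for 8, against 16.8%. The median depended on 1 library: without the second non-injected library it was -0.06, with 0.17 for all tested genes. The 2-cell markers were higher in Suv39h1wt libraries (6 of 7 positive, median 1.77 on the log2 scale), as were the oocyte and zygote markers (7 of 8 positive, median 0.48), and their part in the result was not tested.

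Large-subunit genes had a median of -0.50, with 36 of 48 negative, and small-subunit genes a median of -0.26, with 14 of 24 negative. Among the 16 tested large-subunit genes classed here as existing only in mitochondria, 14 were negative, with a median of -0.72. The 29 large-subunit genes with bacterial counterparts had a median of -0.21, with 19 negative. Mrpl55, Mrps30 and Mrps18a were placed in neither of these large-subunit classes. In the small subunit the order of these classes was the opposite, with a median of 0.12 and 4 of 8 negative for the genes found only in mitochondria, and of -0.66 and 10 of 16 negative for those with bacterial counterparts. Mrps18b, although related to bacterial protein S18, was counted there with the genes found only in mitochondria. Between the first libraries, the median difference in log2(CPM + 0.5) was -0.23 for large-subunit genes found only in mitochondria and -0.46 for those with bacterial counterparts. Between the second libraries these were -1.21 and -0.47, so the order of the large-subunit classes turned. Over the alternative settings their edgeR medians ran from -1.36 to -0.15 and from -0.51 to -0.02. The classes were not tested against each other. Over the alternative settings the large-subunit median ran from -0.83 to -0.06 and kept its sign. The small-subunit median ran from -0.43 to 0.13, being positive in the fits with the replicate block that left out the second Suv39h1wt library (0.02) or the second non-injected library (0.13).

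Only 3 of the 74 genes had an unadjusted p under 0.05 in edgeR, against 6.16% of all tested genes. In each of the 3 the Suv39h1wt libraries were low. Mrpl28 (chromosome 17, 26260465 to 26263558, mm9), the counterpart of a bacterial large-subunit protein, had 4.97 and 5.88 CPM in Suv39h1wt libraries, against 24.7 and 28.5 CPM in non-injected libraries. Its 2 Suv39h1wt libraries agreed closely and lay far below the non-injected ones. The log2 fold change was -2.30 ± 0.70 (SE), with an unadjusted p of 0.00788 and an adjusted p of 0.753 in edgeR. The same gene had 7.20 and 9.29 CPM in Suv39h1mut libraries.

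Mrps18b (chromosome 17, 36047324 to 36053334, mm9), one of the paralogues related to bacterial protein S18, had 19 and 5 counts in Suv39h1wt libraries, against 166 and 279 counts in non-injected libraries. In CPM these were 0.365 and 0.151, against 4.24 and 8.54, with a log2 fold change of -4.60 ± 1.53 (SE), an unadjusted p of 0.0128 and an adjusted p of 0.753 in edgeR. The Suv39h1mut libraries were likewise low, at 16 and 38 counts. Mrps18b overlaps the antisense gene Gm16279. Mrpl33, a large-subunit protein with a bacterial counterpart, had 2.25 and 7.05 CPM in Suv39h1wt libraries, against 17.7 and 24.9 CPM in non-injected libraries (log2 fold change -2.20 ± 0.84, unadjusted p = 0.0249, adjusted p = 0.753 in edgeR). Its log2 fold change was -3.23 without the second Suv39h1wt library and -1.55 without the first. Its deposited extent spans Bre and Rbks, so its counts are uncertain.

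DESeq2 called 2 of 73 of these genes with an adjusted p, against 1.91% of 14902 genes: Mrps18b (adjusted p = 0.0167) and Mrpl28 (adjusted p = 0.0326). Neither was called by edgeR when the number entered the fit as a block, but no gene passed there (0 of 17638).

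On the higher side were Mrpl9, Mrps21 and Rbfa, which is described further on. Mrpl9, a large-subunit protein with a bacterial counterpart, had 28.2 and 30.4 CPM in Suv39h1wt libraries, 22.7 and 22.2 CPM in Suv39h1mut libraries, and 16.3 and 14.4 CPM in non-injected libraries. The libraries of the 3 groups did not overlap, but neither injected group passed the test, with a log2 fold change over non-injected of 0.93 ± 0.57 for Suv39h1wt and 0.55 ± 0.57 for Suv39h1mut (SE). Mrps21, a small-subunit protein, had 2.74 and 12.9 CPM in Suv39h1wt libraries, 1.03 and 1.97 in Suv39h1mut libraries, and 2.40 and 0.153 in non-injected libraries. The log2 fold change for Suv39h1wt over non-injected was 2.61 ± 1.5 (SE), with an unadjusted p of 0.112 and an adjusted p of 0.753 in edgeR. The Suv39h1wt libraries were the highest, and the other groups overlapped.

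**Figure D3:**
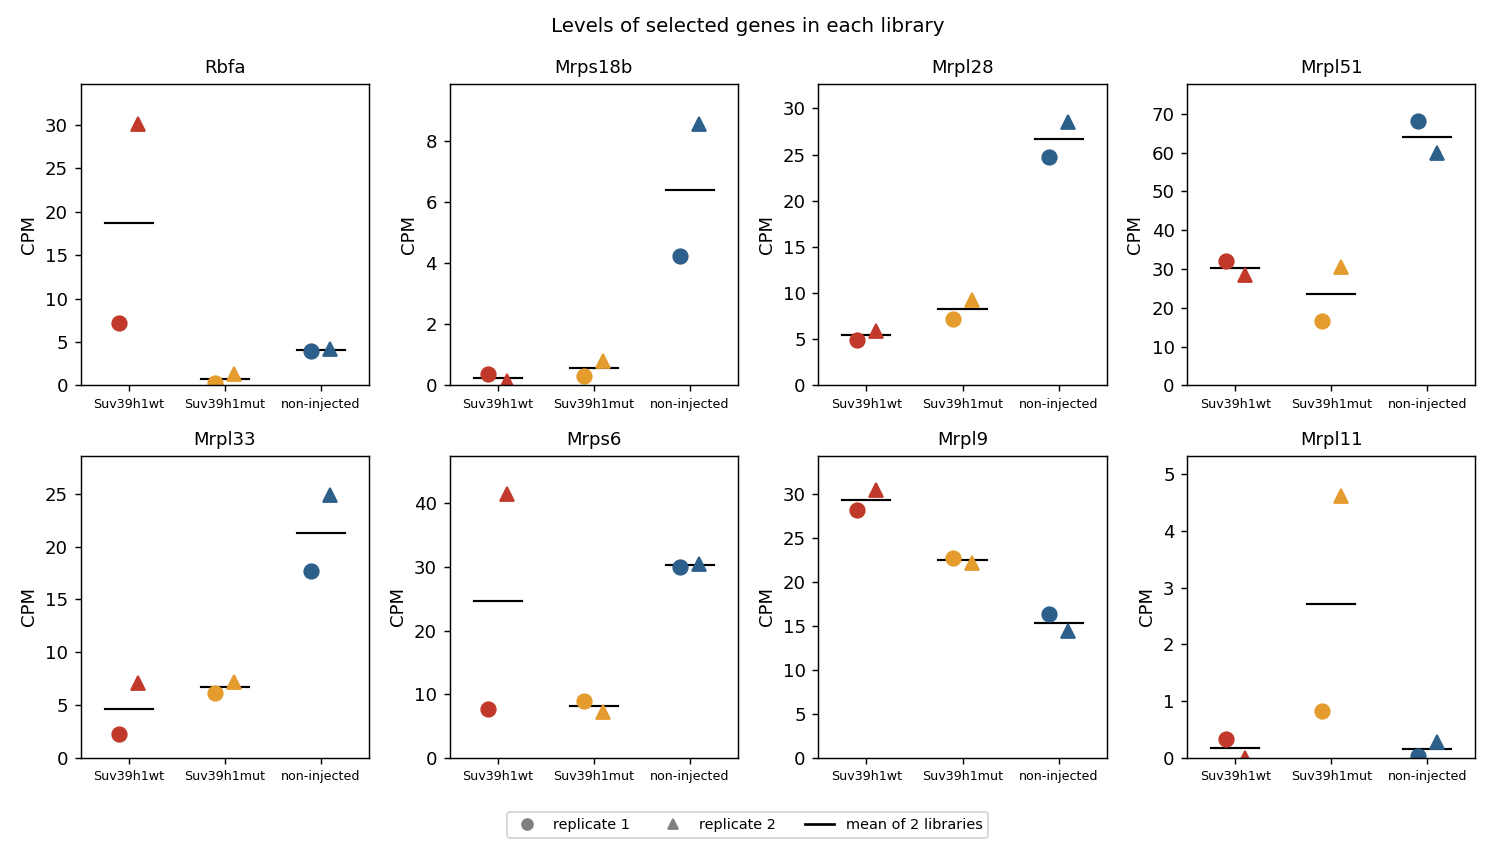
CPM of 8 genes in each library, with circles for replicate 1, triangles for replicate 2 and a line at the mean of the 2 libraries. Both injected groups lie below the non-injected libraries for Mrps18b, Mrpl28, Mrpl51 and Mrpl33 and above them for Mrpl9, whereas Rbfa is lowest in Suv39h1mut libraries at 0.230 and 1.29 CPM.

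Suv39h1mut embryos were set against the same non-injected libraries, so this comparison shares its controls with the one above. Again no gene of the 77 and no other gene (0% of 17638) passed in edgeR, with 781 genes (4.43%) at an unadjusted p under 0.05. Of the 74 tested genes, 26 were positive and 48 negative, with a median log2 fold change of -0.36 against 0.02 for all tested genes. Libraries did not overlap for 20 genes that were lower in Suv39h1mut, against 16.5% of all tested genes, and for 7 that were higher, against 18.9%. Large-subunit genes had a median of -0.43 (34 of 48 negative) and small-subunit genes -0.16 (13 of 24 negative). Over the alternative settings the large-subunit median ran from -0.94 to -0.16, while the small-subunit median ran from -0.48 to 0.05, with 0.05 in the fit with the block and without the first Suv39h1mut library. The median was -0.18 without the second non-injected library, with 0.23 for all tested genes, and -0.68 without the second Suv39h1mut library, with -0.05. DESeq2 called 0 of 73 of these genes, with a smallest adjusted p of 0.197, against 0.396% of 14902 genes. The 2-cell markers were higher here too (6 of 7 positive, median 1.41 on the log2 scale), and of the oocyte and zygote markers 5 of 8 were positive (median 0.13). Their part in the result was not tested.

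An unadjusted p under 0.05 in edgeR was found for 5 of the 74 genes, against 4.43% of all tested genes. Each of the 5 had low Suv39h1mut libraries. Mrpl51 (chromosome 6, 125141819 to 125145601, mm9), a protein found only in mitochondrial ribosomes, had 16.7 and 30.5 CPM in Suv39h1mut libraries, against 68.1 and 59.9 CPM in non-injected libraries. Its log2 fold change was -1.44 ± 0.53 (SE), with an unadjusted p of 0.022 and an adjusted p of 0.88 in edgeR. The Suv39h1wt libraries were also below both non-injected ones, at 32.0 and 28.4 CPM. Mrpl12, whose bacterial counterpart forms the flexible stalk that recruits translation factors, had 6.97 and 12.0 CPM in Suv39h1mut libraries, against 27.1 and 35.6 CPM in non-injected libraries (log2 fold change -1.72 ± 0.67), and 10.4 and 18.6 CPM in Suv39h1wt libraries. For Mrpl28 the log2 fold change was -1.69 ± 0.68 and for Mrps18b -3.52 ± 1.45 (SE).

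Mrps6, a small-subunit protein with a bacterial counterpart, had 8.94 and 7.15 CPM in Suv39h1mut libraries, against 30.0 and 30.5 CPM in non-injected libraries (log2 fold change -1.91 ± 0.80). Its Suv39h1wt libraries split, with 7.70 CPM in the first and 41.5 CPM in the second. On the higher side stood Mrpl13, with 12.3 and 16.8 CPM in Suv39h1mut libraries against 5.43 and 10.3 CPM in non-injected libraries. Mrpl50 had 10.3 and 9.35 CPM in Suv39h1mut libraries, against 3.21 and 5.24 CPM in non-injected libraries. Mrpl11, whose bacterial counterpart sits at the base of the stalk, had 43 and 218 counts in Suv39h1mut libraries, against 1 and 9 counts in non-injected libraries, and 17 and 0 counts in Suv39h1wt libraries. None of these 3 had an unadjusted p under 0.05.

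**Figure D4:**
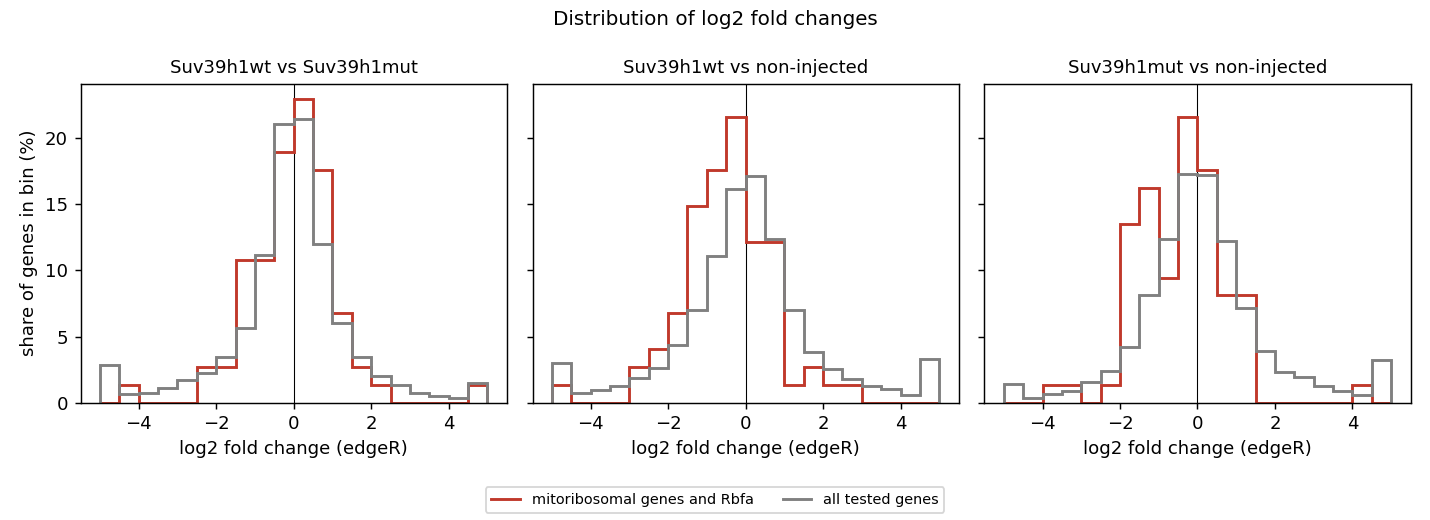
Share of genes (%) in bins of 0.5 of the edgeR log2 fold change for the 74 tested genes (red) and all 17638 tested genes (grey) in the 3 comparisons; the end bins hold everything beyond them. The red distribution lies to the left of the grey one in both comparisons with non-injected embryos, with medians of -0.45 and -0.36, and over it between Suv39h1wt and Suv39h1mut, with a median of 0.05.

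Suv39h1wt against Suv39h1mut embryos, both injected, asks what depended on the form of the message. The mitochondrial ribosome genes as a whole stood where other genes did: 39 were positive and 35 negative, with a median log2 fold change of 0.05 against -0.01 for all tested genes. No gene passed in edgeR (0% of 17638), 480 genes (2.72%) had an unadjusted p under 0.05, and among the 74 the only one was Rbfa. DESeq2 called 1 of 71, against 0.317% of 13876 genes. Libraries did not overlap for 10 genes that were higher in Suv39h1wt, against 12.3% of all tested genes, and for 7 that were lower, against 15.1%. The median had no stable sign, running from -0.19 without the second Suv39h1wt library to 0.44 without the second Suv39h1mut library. The large subunit had a median of -0.06 (23 positive, 25 negative) and the small subunit 0.16 (15 positive, 9 negative), and both took either sign over the settings (-0.30 to 0.66 and -0.46 to 0.27).

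After Rbfa, the smallest unadjusted p belonged to Mrpl42, a protein of mitochondrial ribosomes alone, with 2.17 and 2.32 CPM in Suv39h1wt libraries, against 4.56 and 18.7 CPM in Suv39h1mut libraries (log2 fold change -2.37 ± 1.08, unadjusted p = 0.0519, adjusted p = 1 in edgeR). The second Suv39h1mut library carried most of that difference. Mrpl16 had 5.24 and 2.53 CPM in Suv39h1wt libraries, against 11.1 and 9.03 CPM in Suv39h1mut libraries. Mrpl17 went the other way, with 12.5 and 16.2 CPM in Suv39h1wt libraries, against 8.22 and 3.26 CPM in Suv39h1mut libraries. Both are large-subunit proteins with bacterial counterparts, and neither had an unadjusted p under 0.05.

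Rbfa, the assembly factor on chromosome 18, differed most of the 77 genes between the 2 injected groups. It had 377 and 999 counts in Suv39h1wt libraries, 12 and 61 counts in Suv39h1mut libraries, and 154 and 136 counts in non-injected libraries. In CPM these were 7.24 and 30.1, 0.230 and 1.29, and 3.93 and 4.16, so that the 3 groups did not overlap and the non-injected embryos lay between the injected ones. The log2 fold change was 4.61 ± 1.21 for Suv39h1wt over Suv39h1mut (SE), with an unadjusted p of 0.00341 and an adjusted p of 1 in edgeR. It was 3.26 without the second Suv39h1wt library and 6.35 without the second Suv39h1mut library. Against non-injected embryos it was 2.20 ± 1.09 for Suv39h1wt (unadjusted p = 0.0701) and -2.41 ± 1.11 for Suv39h1mut (unadjusted p = 0.054), with adjusted p of 0.753 and 0.88 in edgeR. For Suv39h1wt over non-injected it was 0.85 without the second Suv39h1wt library.

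The call for Rbfa depended on the tool. DESeq2 gave a log2 fold change of 4.65 and an adjusted p of 0.00282. In the authors' deposited table, Rbfa ranks 1 by p-value of Suv39h1wt against Suv39h1mut, with a log2 ratio of 3.50 and an adjusted p of 3.57e-05. That table has 58 of 14950 genes at an adjusted p under 0.05 (0.388%), and among the 73 of the 77 genes with an adjusted p Rbfa is the only one, the next being Mrpl42 at 0.322. In edgeR, Rbfa passed in 1 setting, without the first Suv39h1wt library and with the replicate number as a block (log2 fold change 5.05, adjusted p = 0.00528). Suv39h1wt then had 1 library, which the fit assumes to vary like the other groups. Rbfa had been singled out from these data for its values, so its Suv39h1wt against Suv39h1mut difference is a description and not independent support.

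The genes next to Rbfa on the chromosome were positive for Suv39h1wt over Suv39h1mut as well, by less in 5 of 6. Of all tested genes, 49.3% were positive in this comparison. The log2 fold changes were 0.60 for Gm10525, 0.68 for Pard6g, 0.52 for Adnp2, 1.19 for Gm16286 and 1.31 for Txnl4a, with unadjusted p of 0.0979 or more. Hsbp1l1 had 97 and 71 counts in Suv39h1wt libraries, 3 and 0 counts in Suv39h1mut libraries, and 4 and 52 counts in non-injected libraries. Its log2 fold change between the injected groups was 5.96 ± 2.43 (SE), with an unadjusted p of 0.0339 and an adjusted p of 1 in edgeR. Against non-injected embryos the neighbours did not all have the signs of Rbfa. Pard6g (0.56) and Adnp2 (0.15) were positive for Suv39h1mut, and Gm16286 (-0.56) and Txnl4a (-0.18) were negative for Suv39h1wt. Gm10525 and Hsbp1l1 had the signs of Rbfa in both comparisons. Whether the region changed together was not tested. No gene overlapping Rbfa is listed in the deposited coordinates.

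On the TMM scale, the second libraries of the groups tended to hold more of these transcripts than the first. As an unscaled share of all gene counts, the second library was higher only in Suv39h1mut embryos (0.0560% and 0.0812%). That share was lower in the second library of Suv39h1wt (0.0776% and 0.0583%) and of non-injected embryos (0.0980% and 0.0974%). In the fit with group and number, 50 of the 74 genes were positive and 24 negative for number 2 over number 1, with a median log2 fold change of 0.28 against -0.08 for all tested genes. None of the 77 passed, while 551 genes did (3.12% of 17638), and 9 of the 74 had an unadjusted p under 0.05, against 17% of all tested genes. Mrpl34 differed most by p, with 27.7, 24.7 and 42.5 CPM in the second library of Suv39h1wt, Suv39h1mut and non-injected embryos, against 9.52, 5.48 and 18.5 CPM in the first (log2 fold change 1.63, unadjusted p = 0.00332, adjusted p = 0.0744 in edgeR). Mrpl22 had 17.6, 16.6 and 22.8 CPM in the second libraries, against 7.56, 3.47 and 13.2 CPM in the first. For both genes every second library was higher than the first of its group. Differences in log2(CPM + 0.5) from the non-injected library of the same number were also taken, without a fit. Within number 1 their median was -0.23 for Suv39h1wt and -0.47 for Suv39h1mut, and within number 2 it was -0.42 and -0.30. The labels do not say what the number marks.

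Other proteins of the machinery were examined in 4 lists. The mitoribosome proteins outside the Mrpl and Mrps names (7 tested) had median log2 fold changes of -0.05 for Suv39h1wt and -0.54 for Suv39h1mut over non-injected embryos. Dap3, a GTP-binding protein of the small subunit, had 8.31 and 6.60 CPM in Suv39h1wt libraries, 19.8 and 10.2 in Suv39h1mut libraries, and 17.8 and 25.7 in non-injected libraries. Mrp63, a large-subunit protein, had 10.5 and 4.37 CPM in Suv39h1wt libraries, 8.45 and 8.38 in Suv39h1mut libraries, and 12.8 and 30.8 in non-injected libraries. Gadd45gip1, a large-subunit protein found only in mitochondria, had 20.3 and 19.2 CPM in Suv39h1wt libraries, 7.49 and 11.9 in Suv39h1mut libraries, and 25.2 and 15.8 in non-injected libraries. No gene of the 4 lists passed in edgeR in any of the 3 comparisons.

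The assembly factors (27 tested) had a median of -0.42 in both comparisons with non-injected embryos, with 19 negative for Suv39h1wt and 18 for Suv39h1mut. With the replicate block the medians were -0.96 for Suv39h1wt and -0.50 for Suv39h1mut. Mpv17l2, an inner-membrane protein needed to assemble the ribosome, had 24 and 7 counts in Suv39h1wt libraries, 43 and 39 in Suv39h1mut libraries, and 173 and 604 in non-injected libraries. Its log2 fold change for Suv39h1wt over non-injected was -5.07 ± 1.34 (SE), with an adjusted p of 0.753 in edgeR and 0.00116 in DESeq2. Ftsj2, a methyltransferase of the large ribosomal RNA, had 1 and 0 counts in Suv39h1wt libraries, 38 and 2 in Suv39h1mut libraries, and 145 and 78 in non-injected libraries, and DESeq2 gave Suv39h1wt against non-injected an adjusted p of 0.0243. Both genes were thus low in all 4 injected libraries. Mettl17, a small-subunit assembly factor, had 9.25 and 10.9 CPM in Suv39h1wt libraries, 6.17 and 10.7 in Suv39h1mut libraries, and 29.6 and 20.6 in non-injected libraries. Tfb1m, which dimethylates the small ribosomal RNA and in human mitochondria works beside RBFA, had 89 and 2 counts in Suv39h1wt libraries, 281 and 593 in Suv39h1mut libraries, and 60 and 60 in non-injected libraries, an order between the injected groups opposite to that of Rbfa.

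The translation factors (13 tested) had medians of -0.23 for Suv39h1wt and -0.05 for Suv39h1mut over non-injected embryos. With the replicate block these were -0.53 and 0.14, so that the sign turned for Suv39h1mut. Tsfm, an elongation factor, had 0.576 and 1.78 CPM in Suv39h1wt libraries, 2.37 and 1.14 in Suv39h1mut libraries, and 9.03 and 6.92 in non-injected libraries. Oxa1l, the insertase that receives new proteins at the inner membrane, had 63 and 63 counts in Suv39h1wt libraries, 177 and 1166 in Suv39h1mut libraries, and 264 and 595 in non-injected libraries. Mtif3, an initiation factor, had 87 and 2065 counts in Suv39h1wt libraries, 213 and 345 in Suv39h1mut libraries, and 517 and 126 in non-injected libraries. Mtfmt, which formylates the initiator tRNA, had 5.66 and 9.94 CPM in Suv39h1wt libraries, 4.85 and 5.04 in Suv39h1mut libraries, and 1.28 and 3.15 in non-injected libraries. Unlike Tsfm, it was higher in the 4 injected libraries.

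Genes for transcription and RNA processing in mitochondria (7 tested) had medians of -0.96 for Suv39h1wt and -0.41 for Suv39h1mut over non-injected embryos. Within the replicate numbers their medians had opposite signs, at 0.18 for Suv39h1wt and 0.60 for Suv39h1mut in number 1, and -1.45 and -1.48 in number 2. Among them Polrmt, the mitochondrial RNA polymerase, had 15.2 and 28.8 CPM in Suv39h1wt libraries, 9.25 and 28.1 in Suv39h1mut libraries, and 27.6 and 79.4 in non-injected libraries, so the groups overlapped. Elac2, which trims tRNA ends, had 9.37 and 3.59 CPM in Suv39h1wt libraries, 10.6 and 2.81 in Suv39h1mut libraries, and 6.94 and 23.4 in non-injected libraries.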

How the data were processed

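Embryo RNA was amplified from 2 ng with random and poly-T primers, per the labels' protocols. Per the submitters' processing notes, CASAVA 1.8.2, TopHat2 2.0.14, Bowtie, HTSeq 0.6.1 and mm9 were used; the annotation release and strand setting are not given in the sources used here. The authors deposited raw counts per gene, the unit tested here. The deposited normalized counts (signal), which equal counts divided by 1 factor per library, were not tested. The log2 ratios and the adjusted p-values of the authors' deposited table are their own, and their test is not stated; columns left unmapped were 0.

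Gene length was taken from the authors' values divided by length. The fit was edgeR 4.0.16's robust quasi-likelihood F test in R 4.3.3 on all 6 libraries (group only, TMM, filterByExpr with a minimum count of 10, Benjamini-Hochberg adjusted p under 0.05), with 3 residual degrees of freedom and a biological coefficient of variation of 0.862. The SE printed for an edgeR log2 fold change is its absolute value divided by the square root of F. DESeq2 1.42.0 was an alternative, and the others were scaling, filters, left-out libraries and a replicate block. The main fit was checked on simulated counts with large changes and less spread than these libraries. That check does not show what the fit can find at the spread seen here.

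Deviations of same-numbered libraries correlated at 0.196 (Suv39h1wt and Suv39h1mut), 0.141 (Suv39h1wt and non-injected) and 0.167 (Suv39h1mut and non-injected) over all tested genes. Over the 74 genes the values were 0.223, 0.039 and 0.409 in the same order. On the basis of all tested genes, the number was entered as a block in alternative fits. The group tests reported first used group only, and the labels do not state a pairing. Members, lists and tests were chosen with earlier results of these data known. Named genes are Rbfa, the 5 highest per subunit, the 3 smallest p per direction and comparison, the 4 widest spans, those not tested, and the 2 smallest p per companion list and comparison, of which Mtpap and Lrpprc are not printed.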

Additional observations from a re-analysis of the deposited data

How the results depend on the processing

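With 2 libraries per group, even large changes of single genes did not pass in the group comparisons of the main edgeR fit. Its common coefficient of variation was 0.862, with a median of 0.682 for the 74 genes. Rbfa did not pass at a log2 fold change of 4.61 for Suv39h1wt over Suv39h1mut. A gene that did not pass may therefore still differ. The 19 settings per comparison were other scalings and filters, DESeq2, the replicate block and single libraries left out, with and without the block. A group left with 1 library was assumed to vary like the others. Settings filtered genes anew, so the mitochondrial ribosome genes tested were not always the same 74. Their medians stayed negative against non-injected embryos in every setting run, from -0.62 to -0.06 for Suv39h1wt and from -0.68 to -0.18 for Suv39h1mut. Leaving libraries out gave -0.62 to -0.06 and, with the block, -0.61 to -0.15 for Suv39h1wt, and -0.68 to -0.18 and, with the block, -0.66 to -0.37 for Suv39h1mut. For Suv39h1wt over Suv39h1mut those ranges were -0.19 to 0.44 and, with the block, -0.19 to 0.33. Upper-quartile scaling moved the median of all genes by 0.1 or more in Suv39h1mut against non-injected (to 0.13, with -0.24 for the 74 genes), where the difference from all genes kept its size.

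With the replicate block and all libraries, the medians were 0.08 for Suv39h1wt over Suv39h1mut, -0.45 for Suv39h1wt and -0.33 for Suv39h1mut over non-injected, with 0 genes called, so with all libraries the block changed no other call. Genes called, 0 in each comparison in the report, were 18 without the low-count filter and 44 with DESeq2 for Suv39h1wt over Suv39h1mut, 33 and 284 for Suv39h1wt over non-injected, and 9 and 59 for Suv39h1mut over non-injected. DESeq2 called 1 and 2 of the 77 genes in the first and second of these and 0 in the third. Leaving out 1 library gave 0 to 18, 0 to 44 and 0 to 1 genes, and with the block 0 to 133, 0 to 280 and 0 to 206, of which 0 to 1 were among the 77. With the block, the other nonzero counts were 3 for Suv39h1wt over Suv39h1mut (without the second Suv39h1mut library). For Suv39h1wt over non-injected they were 25, 191 and 50 (without the second Suv39h1wt, Suv39h1mut or non-injected library), and 280 came without the first Suv39h1wt library. For Suv39h1mut over non-injected they were 169 and 206 (without the first or second Suv39h1wt library), 97 and 66 (without the second Suv39h1mut or non-injected library). For number 2 over number 1, no filter gave 1005 genes in place of 551, with Mrpl34 and Mrpl4 as the 2 of the 77. The cause of these differences was not tested.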
